A study of Mus musculus with 48 samples.

Results

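Keratins 7, 8, 18 and 19 and the junction genes Epcam, Cdh1, Cldn3, Cldn4 and Cldn7 were followed through the thoracic mammary gland of aging mice, as a gauge of how much luminal epithelium each piece of gland contributed. The set is defined by gene symbol and comprises 9 of the 55487 genes in the deposited matrix, of which 21823 are protein-coding. Each symbol matched 1 row, and every gene reached 1 TPM (a length-corrected share of all transcripts in the library) in 48 of 48 libraries, so all 9 passed the filter on low values. All mice carried MMTV-rtTA, in which the promoter of a mammary tumour virus drives an activator that works only with doxycycline. The activator was combined with tet-op-Esr1, for estrogen receptor alpha, in the first model and with tet-op-CYP19A1, for the estrogen-producing enzyme aromatase, in the other. Each model supplied 8 groups of 3 libraries. The 3 uninduced groups were 12, 18 and 24 months old. Of the 5 induced groups, those of 12 and 18 months had 1 week of induction, those of 24 months had 6 or 12 months, and the 30-month group had 18 months. Activator and responder were present in all 16 groups, a 30-month uninduced group was not analysed here, and no group received the inducer without a responder, so drug and transgene cannot be told apart. The labels call libraries of a group biological replicates without saying that each came from a separate mouse, so a p-value covers only library-to-library spread, which may be technical. The 12- and 18-month libraries are titled in 1 way and the 24- and 30-month libraries in another, and a batch along that line could not be told apart from age.

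Simple epithelia fill their cytoplasm with keratin filaments built from 1 type II and 1 type I chain. In luminal mammary cells the main pair is Krt8 with Krt18, to which the type II chain Krt7 and the type I chain Krt19 are added in ducts and in subsets of luminal cells. Cdh1 encodes E-cadherin, the calcium-dependent adhesion molecule of the adherens junction. Epcam encodes a membrane adhesion protein that binds claudin-7 and keeps it at the lateral membrane. Claudins form the strands of the tight junction. Cldn3 and Cldn7 are known as abundant claudins of the mammary epithelium, and Cldn4 is a further claudin of many epithelia. A transcript level in a whole gland combines the number of epithelial cells with the RNA of each cell, and fewer cells of a type cannot be told apart from less RNA per cell.

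The members lie on 5 chromosomes of the mouse build mm10 (GENCODE M21). Krt8 (chr15:101996698-102004482, minus strand) and Krt18 (chr15:102028180-102032027, plus strand) are divergent neighbours with starts 23.7 kb apart, at the end of the type II keratin cluster. Krt7 (chr15:101411043-101430313, plus strand) starts 593 kb from Krt8. Krt19 (chr11:100140810-100148665, minus strand) and Cldn7 (chr11:69964779-69967885, plus strand) share a chromosome. Cldn4 (chr5:134945119-134946934, minus strand) and Cldn3 (chr5:134986214-134987472, plus strand) form another divergent pair with starts 39.3 kb apart. Epcam (chr17:87635979-87651129, plus strand) and Cdh1 (chr8:106603351-106670246, plus strand) stand alone.

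The 250 bases before the start of Epcam and of the 3 claudins are printed because these 4 genes split in their behaviour below, Cldn3 and Cldn7 following Epcam closely and Cldn4 less so. They come from the RefSeq annotation of GRCm38.p6, read 5′ to 3′ on the gene's strand, at starts that RefSeq and GENCODE M21 share. Capitals mark the E-box CAGGTG or its reverse complement CACCTG, the site bound by the Snail and Zeb repressors of epithelial genes.
Epcam, chr17:87635729-87635978, plus strand: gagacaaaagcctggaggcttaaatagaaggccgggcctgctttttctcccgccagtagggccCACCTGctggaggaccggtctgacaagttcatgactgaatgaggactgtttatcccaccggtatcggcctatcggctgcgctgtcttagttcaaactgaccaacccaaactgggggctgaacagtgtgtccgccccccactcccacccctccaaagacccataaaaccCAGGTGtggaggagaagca
Cldn3, chr5:134985964-134986213, plus strand: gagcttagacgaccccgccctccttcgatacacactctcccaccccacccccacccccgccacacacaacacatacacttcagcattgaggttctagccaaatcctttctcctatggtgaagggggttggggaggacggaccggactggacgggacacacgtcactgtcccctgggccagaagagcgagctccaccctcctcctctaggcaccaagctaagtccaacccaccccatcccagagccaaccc
Cldn4, chr5:134946935-134947184, minus strand: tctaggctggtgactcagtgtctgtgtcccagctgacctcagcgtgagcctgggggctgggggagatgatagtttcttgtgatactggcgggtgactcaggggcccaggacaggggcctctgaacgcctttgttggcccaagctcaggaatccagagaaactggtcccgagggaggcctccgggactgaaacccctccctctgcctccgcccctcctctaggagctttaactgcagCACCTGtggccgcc
Cldn7, chr11:69964529-69964778, plus strand: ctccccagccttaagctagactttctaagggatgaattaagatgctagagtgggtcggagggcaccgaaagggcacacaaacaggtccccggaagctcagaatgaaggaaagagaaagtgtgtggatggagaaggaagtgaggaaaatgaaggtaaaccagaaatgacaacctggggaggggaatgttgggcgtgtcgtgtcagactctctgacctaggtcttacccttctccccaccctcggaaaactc

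The Epcam window holds 2 E-boxes, 187 and 19 bases before the start, and the Cldn4 window holds 1, 14 bases before the start. No E-box letters were found in the printed Cldn3 and Cldn7 windows, while a second RefSeq start of Cldn7 has 2 in its window. Windows of Krt7, Krt8 and Krt18 have 1 each. Of 32851 windows of the same length in the table, 17.2% hold the motif on either strand. The grainyhead motif AACCGGTT (0.116% of windows) and the palindromic estrogen response element with a 3-base spacer (0.0639%) were found in none of the 8 windows of the 7 members in the table, which are Krt7, Krt8, Krt18, Epcam, Cldn3, Cldn4 and Cldn7. The STAT motif TTCNNNGAA (7.02%) occurred once, in the second Cldn7 window. The searches for the last motif and the response element were chosen after the data had been seen, and a match describes letters only.

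Ribosomal RNA remained in some libraries and touches every level below. Transcripts of CT010467.1, AY036118 and Lars2, rows that collect ribosomal RNA reads, took 15.6% to 67.2% of TPM in 9 libraries and at most 4.54% in the other 39. All 3 of the 12-month CYP19A1 glands induced for 1 week were among the 9, and the highest share belonged to replicate 1 of their uninduced group. TPM sum to a fixed total, so levels were also rescaled by the median ratio over 10110 genes, and the median change of the members is set beside that of all genes. Esr1 transcripts ranged from 5.61 to 25.9 TPM. They were 12.0 ± 2.62 TPM in uninduced and 14.6 ± 3.77 TPM in 1-week induced Esr1 glands of 12 months (SD, n = 3 each). These values overlapped, so this row does not separate the induction labels of those 12-month glands. The other ages are not given for this check. Mouse Cyp19a1 was at or below 0.29 TPM everywhere, and the transgene's own sequence was not analysed here. The labels state at least 50 M reads per library, and TPM keep no record of the depth above that.

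Krt18, Krt8, Krt19 and Epcam were the abundant members and Krt7, Cldn4 and Cldn7 the scarce ones (the plot of levels by library). Krt18 ran from 20.6 to 222 TPM with a median of 78.0 over 48 libraries, Krt8 from 15.96 to 164 with a median of 63.7, and Krt19 from 14.9 to 162 with a median of 66.1. Krt7 ran from 2.38 to 27.2 TPM with a median of 9.56. Krt7 was below Krt8 in every library, at most 0.344 times its TPM. Epcam ran from 10.6 to 161 TPM (median 43.9) and Cdh1 from 3.12 to 46.0 (median 12.3). Cldn3 was the most abundant claudin of the 3, at 4.5 to 63.9 TPM (median 17.5), against 2.24 to 19.5 (median 9.31) for Cldn4 and 2.27 to 36.8 (median 7.91) for Cldn7. The processed pseudogene Krt8-ps, whose reads could be confused with those of Krt8, had a median of 0.345 TPM.

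Each member spanned a wide range, from 8.70-fold between lowest and highest library for Cldn4 to 16.2-fold for Cldn7, and from 4.99-fold (Krt18) to 10.2-fold (Cldn7) after rescaling. Between 47.0% (Cldn7) and 65.7% (Cldn4) of the variance of log2(TPM + 1) lay between libraries of the same group. The highest mean of 8 members was that of 12-month Esr1 glands after 1 week of induction, and that of Krt19 belonged to the 18-month Esr1 glands after 1 week. After rescaling the highest mean of Krt7 was in uninduced 12-month CYP19A1 glands, 16.1 against 13.4 in those 12-month Esr1 glands. The lowest mean of the 4 keratins and of Cldn4 was in the 12-month CYP19A1 glands after 1 week, all 3 of which carry 36.7% to 49.8% ribosomal RNA. After rescaling this held for Krt19 and Cldn4 only. The lowest rescaled means of Krt8 (36.4) and Krt18 (51.7) were in 30-month CYP19A1 glands. That of Krt7 (4.98) was in 24-month Esr1 glands after 12 months of induction. The lowest mean of Epcam, Cdh1, Cldn3 and Cldn7 was in the 30-month CYP19A1 glands. When the 16 groups were ordered by mean, at most 1 of the 15 neighbouring pairs failed to overlap for any member. The extremes came from single libraries: replicate 2 of the induced 12-month Esr1 glands was the highest library for 7 of the 9 genes, and replicate 1 of the uninduced 12-month CYP19A1 glands was the lowest for 6.

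**Figure D1:**
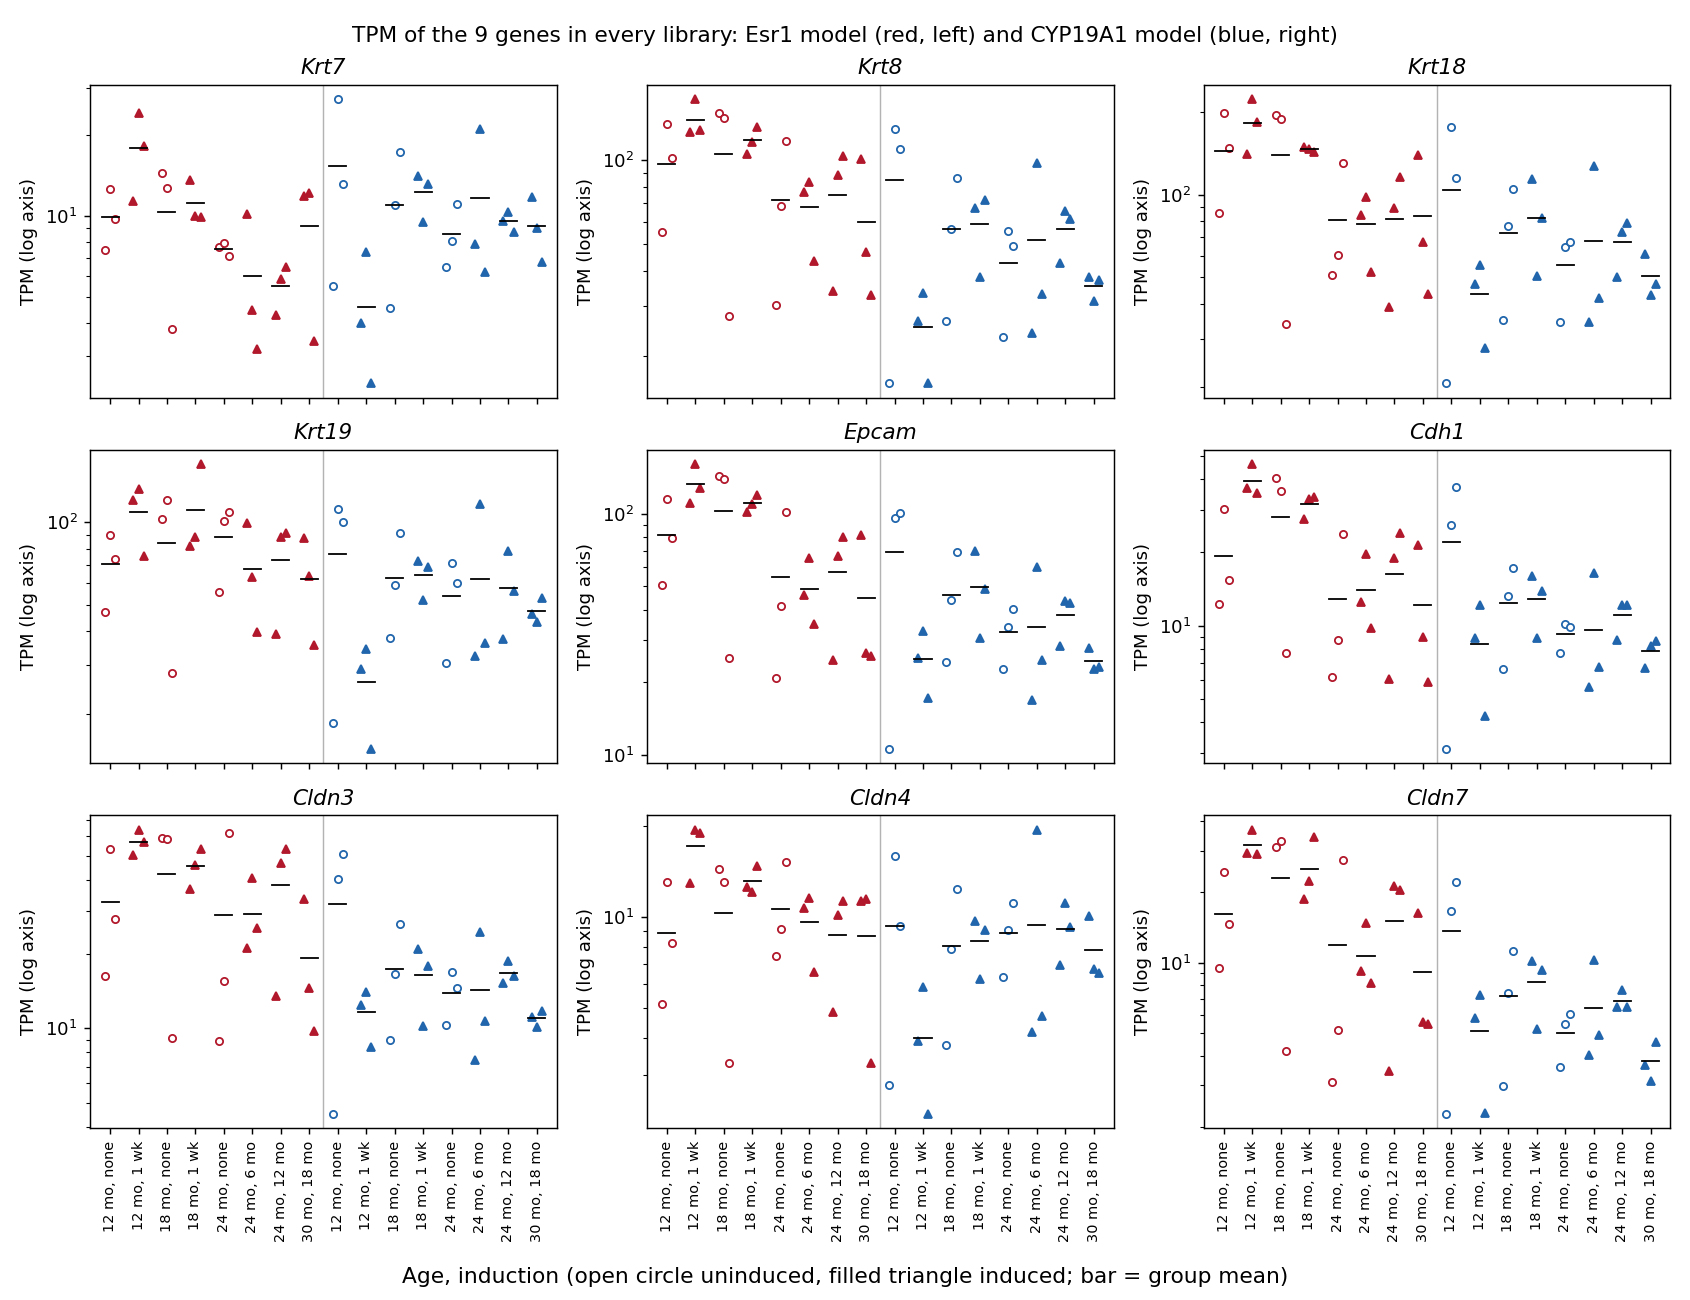
TPM (log axis) of each of the 9 genes in all 48 libraries, by model, age and induction; open circles are uninduced, filled triangles induced, and bars are group means of 3 libraries. Groups overlap widely, and the uninduced 12-month CYP19A1 library at the bottom of most panels is the one with 67.2% ribosomal RNA.

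Pooled over ages and induction, and without rescaling, medians were higher in Esr1 than in CYP19A1 libraries, by the least for Krt7. Of the 9 libraries rich in ribosomal RNA, 7 are CYP19A1. Epcam had a median of 80.1 TPM over 24 Esr1 libraries (20.9 to 161) and 31.5 TPM over 24 CYP19A1 libraries (10.6 to 101). Cldn3 had medians of 38.9 and 14.3 TPM, Cldn7 of 17.5 and 5.92 TPM, and Krt8 of 100.6 and 40.7 TPM. Krt7 had medians of 9.83 and 9.25 TPM, and Cldn4 of 11.4 and 7.43 TPM. The ranges of the models overlapped for all 9 genes.

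Whether these differences exceed the spread between libraries was tested with limma on log2(TPM + 1) in 15 comparisons, adjusted over the 20209 genes tested by the Benjamini-Hochberg method. None of the 135 tests of members passed at an adjusted p under 0.05. The smallest adjusted p was 0.217, and 9 tests had an unadjusted p under 0.05. The standard error of a member's change between 2 groups of 3 was 0.48 to 0.66 on the log2 scale. The change of Epcam in 12-month Esr1 glands after 1 week, 0.76, had a 95% interval from -0.54 to 2.05. The plot of log2 changes shows each comparison under both scalings.

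**Figure D2:**
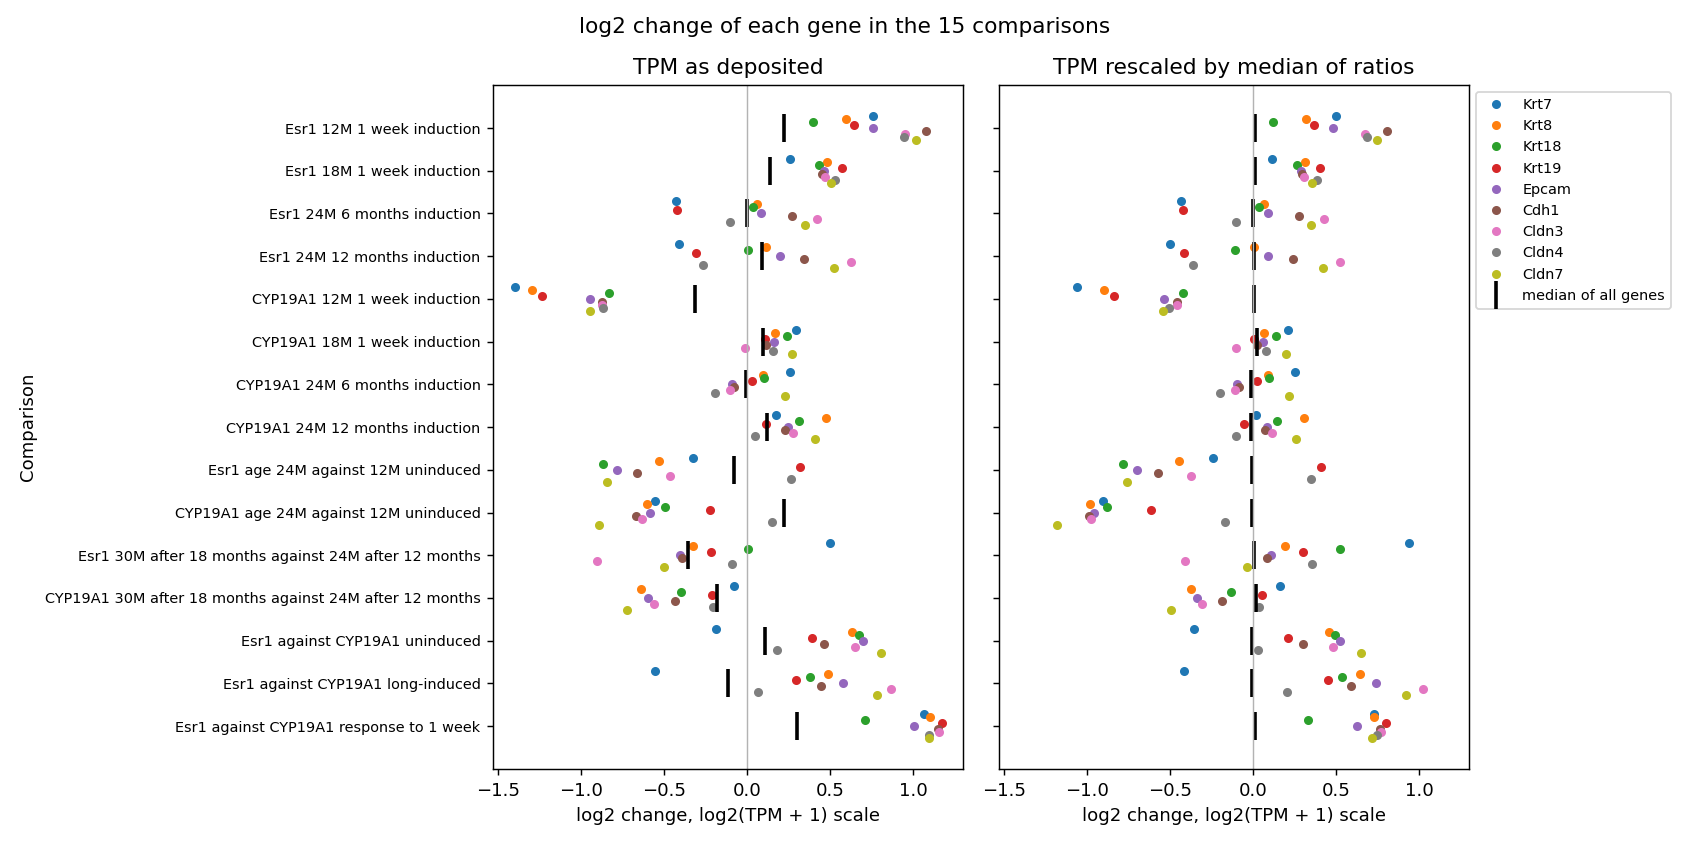
log2 change of each gene on the log2(TPM + 1) scale in the 15 comparisons, from the deposited TPM (left) and after rescaling by the median of ratios (right); the black bar is the median change of all genes tested. In the 12-month CYP19A1 induction all 9 points lie to the left of 0 in both panels, and in the comparison of long-induced models Krt7 lies apart, on the other side of 0 from the other 8.

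In uninduced glands the comparison of Esr1 with CYP19A1, averaged over 12, 18 and 24 months, placed 8 of 9 members higher in the Esr1 model. Log2 differences ran from -0.19 ± 0.28 (SE) for Krt7 to 0.80 ± 0.38 for Cldn7, with Epcam at 0.70 ± 0.37 and Krt18 at 0.67 ± 0.35. Their median was 0.63, against 0.10 for all genes, and 0.46 after rescaling. No member passed (0 of 9, where 2.95% of all genes passed), and Cldn7 alone had an unadjusted p under 0.05 (limma adjusted p = 0.265), as did 13.2% of all genes in that direction. The median was 0.31 once the library with 67.2% ribosomal RNA, replicate 1 of the 12-month CYP19A1 group, was left out.

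Long-induced glands of 24 and 30 months gave the same layout. Log2 differences between Esr1 and CYP19A1 ran from -0.55 ± 0.28 for Krt7 to 0.87 ± 0.38 for Cldn3, with Cldn7 at 0.78 ± 0.38, a median of 0.44 (0.28 to 0.63 with single libraries left out) and an all-gene median of -0.12. Of the 9 members 0 passed (4.15% of all genes did), with limma adjusted p = 0.217 for Cldn3 and 0.294 for Krt7. Cldn3 and Cldn7 had an unadjusted p under 0.05, as did 4.04% of all genes in that direction. After rescaling the median was 0.59 and Cldn3 passed, at a log2 difference of 1.02 (limma adjusted p = 0.0299), where 9.72% of all genes passed under that scaling. Cldn3 measured 38.0 ± 21.4 TPM in Esr1 and 16.8 ± 1.76 TPM in CYP19A1 glands after 12 months of induction, and 19.2 ± 12.4 and 11 ± 0.846 TPM at 30 months (SD, n = 3 each).

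Genes of neighbouring pathways were counted in the same comparisons, from lists drawn up with earlier results of these data known. Among 24 other epithelial junction genes, such as the tight junction scaffold Tjp3 and the desmosomal cadherin Dsg2, 0 passed in any of the 15 comparisons. At most 4.24% of all genes passed in any of them. Tjp3 had the largest difference between the models, 1.00 in uninduced and 1.03 in long-induced glands. Of 15 epithelial regulators 1 passed, the pioneer factor Foxa1 of hormone-sensing luminal cells. Its log2 difference between long-induced Esr1 and CYP19A1 glands was -0.86 ± 0.25 (limma adjusted p = 0.0388), where 4.15% of all genes passed. So near that share, 1 of 15 says little about the list. Among 5 repressors of epithelial genes, such as Zeb1 and Snai2, 0 passed in any comparison. Of 10 luminal progenitor and alveolar genes, 1 passed in uninduced glands, where 2.95% of all genes passed. This was the milk mucin gene Glycam1, 4.84 ± 1.20 higher in Esr1 (limma adjusted p = 0.0149). In long-induced glands 4 of the 10 passed, against 4.15% of all genes. These were Glycam1 (5.27), the whey protein gene Wap (4.98) and the casein genes Csn2 (4.36) and Csn3 (2.26), all higher in Esr1.

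Induction for 1 week at 12 months went with opposite signs in the models. In Esr1 glands all 9 members lay above uninduced glands, from 0.39 ± 0.61 for Krt18 to 1.08 ± 0.60 for Cdh1, with a median of 0.76, or 0.50 after rescaling, against 0.22 for all genes. Cdh1 was 12.3, 30.3 and 15.4 TPM in uninduced and 36.8, 46.0 and 35.0 TPM in induced glands. Every induced value lay above every uninduced value for Cdh1, as for Cldn7, while the other 7 members overlapped. Groups did not overlap upward for 10.1% of all genes. After rescaling Epcam, Cldn3 and Cldn4 lay apart as well, 5 of 9 members against 8.27% of all genes. Of the 9 members 0 passed, and none reached an unadjusted p under 0.05, which 3.79% of all genes did upward (limma adjusted p = 0.754 for Cdh1, 0.0099% of all genes passed). The list of other junction genes had a median of 0.64, with Lsr, a tricellular junction protein, at 1.09. Markers of immune cells were higher in the same libraries without overlap: the sum of 6 macrophage genes was 71.8 to 187 TPM in uninduced and 214 to 239 TPM in induced glands, and that of 6 B and plasma cell genes 29.2 to 53.7 and 92.1 to 144 TPM. Their part in the result was not tested.

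CYP19A1 glands of 12 months had all 9 members lower after 1 week, from -0.83 ± 0.61 for Krt18 to -1.40 ± 0.48 for Krt7, with a median of -0.95, or -0.54 after rescaling, against -0.32 for all genes. Krt7 was 5.49, 27.2 and 13.2 TPM in uninduced and 3.99, 7.35 and 2.38 TPM in induced glands. The groups overlapped through the uninduced replicate 1, which had 67.2% ribosomal RNA. Of the 9 members 0 passed (0% of all genes). Krt7, Krt8 and Krt19 had an unadjusted p under 0.05 (limma adjusted p = 0.548 for each), as did 6.61% of all genes downward. Without that library 9 of 9 members were called lower, with a median of -1.90, where 61.5% of all genes were called and their median was -0.76. Without uninduced replicate 2, of low ribosomal RNA, the members' median was -0.51. With rescaled values and the uninduced replicate 1 left out, 0 of 9 were called, with a median of -0.90 (smallest limma adjusted p = 0.467). The 3 induced libraries held 36.7%, 43.7% and 49.8% ribosomal RNA. Their part in the result was not tested beyond this rescaling.

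The difference of the 1-week responses, Esr1 minus CYP19A1 over 12 and 18 months, was above 0 for all 9 members, from 0.71 ± 0.61 (Krt18) to 1.17 ± 0.55 (Krt19). The median was 1.10, or 0.73 after rescaling, against 0.30 for all genes. Of the 9 members 0 passed (0% of all genes), and Krt7, Krt19 and Cldn4 had an unadjusted p under 0.05 (limma adjusted p = 0.548 for each), as did 5.52% of all genes upward. Without uninduced 12-month CYP19A1 replicate 1 the test called 7 members and 34.6% of all genes, and 0 members once the values were also rescaled.

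At 18 months 1 week of induction left the members close to uninduced levels in relation to the spread. In Esr1 glands the changes ran from 0.26 ± 0.48 (Krt7) to 0.57 ± 0.55 (Krt19), with a median of 0.47 against 0.14 for all genes, and 0 of 9 passed (0% of all genes). Krt19 was 103, 120.4 and 28.1 TPM in uninduced and 81.5, 88.2 and 162 TPM in induced glands. The low uninduced replicate 3 set the sign: without it the median was -0.30. In CYP19A1 glands the changes ran from -0.01 ± 0.66 (Cldn3) to 0.29 ± 0.48 (Krt7), with a median of 0.16 against 0.09 for all genes, and 0 of 9 passed (0% of all genes). Without uninduced replicate 1, which had 40.3% ribosomal RNA, that median was -0.23.

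Longer induction was compared at 24 months. In Esr1 glands after 6 months the changes ran from -0.43 ± 0.48 (Krt7) to 0.42 ± 0.66 (Cldn3), with a median of 0.06 against 0 for all genes, and 0 of 9 passed (0% of all genes). After 12 months they ran from -0.41 ± 0.48 (Krt7) to 0.63 ± 0.66 (Cldn3), with a median of 0.11 against 0.09 for all genes, and 0 of 9 passed (0.00495% of all genes). Krt7 was 7.63, 7.95 and 7.08 TPM in uninduced glands and 4.27, 5.80 and 6.43 TPM after 12 months. All 3 induced values lay below the 3 uninduced values for Krt7 alone among the members, where 0.762% of all genes had groups apart in that direction. Cldn3 was 8.88, 15.6 and 62.0 TPM in uninduced glands and 13.6, 46.9 and 53.5 TPM after 12 months, with overlapping groups. Either median changed sign with single libraries left out, from -0.31 to 0.50 after 6 months and from -0.33 to 0.60 after 12 months, and both were lowest without uninduced replicate 1.

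In CYP19A1 glands of 24 months the changes after 6 months ran from -0.19 ± 0.50 (Cldn4) to 0.26 ± 0.48 (Krt7), with a median of 0.03 against -0.01 for all genes, and 0 of 9 passed (0% of all genes). After 12 months they ran from 0.05 ± 0.50 (Cldn4) to 0.47 ± 0.62 (Krt8), with a median of 0.25 against 0.12 for all genes, and 0 of 9 passed (0.0198% of all genes). Cldn7 was 3.59, 5.47 and 6.03 TPM in uninduced and 6.48, 7.67 and 6.49 TPM in induced glands. It was the 1 member whose groups did not overlap, where 6.78% of all genes did not overlap upward. After rescaling Cldn7 overlapped too, and 7 of 9 members were above 0. Without 6-month induced replicate 2 the median after 6 months was -0.51.

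Age comparisons of uninduced glands set 24 against 12 months. In Esr1 glands 7 of 9 members were lower, from -0.87 ± 0.61 (Krt18) to 0.32 ± 0.55 (Krt19), with a median of -0.53 against -0.08 for all genes, and 0 of 9 passed (0.574% of all genes). Krt18 was 86.1, 198 and 147 TPM at 12 months and 51.2, 60.4 and 130.3 TPM at 24 months, with overlapping groups. The median ranged from -1.19 to -0.25 with single libraries left out, lowest without 24-month replicate 3. In CYP19A1 glands 8 of 9 were lower, from -0.89 ± 0.66 (Cldn7) to 0.15 ± 0.50 (Cldn4), with a median of -0.58 while all genes had a median of 0.22, and 0 of 9 passed (4.24% of all genes). Rescaling placed all 9 lower, with a median of -0.95 and Cldn4 at -0.17. Without 12-month replicate 1 the median was -1.54, and without replicate 3 it was -0.05. Skeletal muscle genes rose in the same comparison, 8 of 8 of the list, such as Acta1 (4.17 ± 1.00, limma adjusted p = 0.0103). The summed muscle level was 510.4 to 4282 TPM at 12 and 15793 to 24457 TPM at 24 months, and its part in the members' lower share was not tested.

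Between 24 months after 12 months of induction and 30 months after 18 months, the direction depended on the scaling in Esr1 glands. There 7 of 9 members were lower as deposited and 7 of 9 higher after rescaling. The changes ran from -0.91 ± 0.66 (Cldn3) to 0.49 ± 0.48 (Krt7), with a median of -0.33, close to the all-gene median of -0.36, and 0.19 after rescaling. None of 9 passed (0.139% of all genes), and the 1 adipocyte gene that passed was Lep, the leptin gene, which fell by 4.32 on the log2 scale (limma adjusted p = 0.0260). Replicate 3 at 30 months had 50.3% ribosomal RNA, and without it the median was 0.02. In CYP19A1 glands all 9 were lower, from -0.72 ± 0.66 (Cldn7) to -0.08 ± 0.48 (Krt7), with a median of -0.43 against -0.18 for all genes, and 0 of 9 passed (0% of all genes). Cldn7 was 6.48, 7.67 and 6.49 TPM at 24 months and 3.66, 3.14 and 4.60 TPM at 30 months. Groups lay apart for Krt8, Epcam, Cdh1, Cldn3 and Cldn7, where 21.6% of all genes were apart in that direction. After rescaling Cldn7 alone lay apart, 1 of 9 against 5.19% of all genes. After rescaling the median was -0.19, with 3 members above 0, among them Krt7 at 0.17.

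Because the TPM ratio of 2 members within a library does not depend on the ribosomal RNA share, 7 ratios were compared between the models and between induced and uninduced glands. The test permuted labels within strata of age and induction, or of model and age (two-sided, 100000 resamples, 14 tests, where the smallest p is 1e-05). Krt7 to Krt8 and Cldn4 to Cldn3 differed between the models (the plot of ratios). Their log2 differences were -0.94 and -0.62 with a pseudocount of 0.1, and -0.91 and -0.61 after rescaling.

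Krt7 was lower relative to Krt8 in Esr1 than in CYP19A1 glands. The ratio of Krt7 to Krt8 had a median of 0.101 over 24 Esr1 libraries (0.0540 to 0.259) and 0.205 over 24 CYP19A1 libraries (0.121 to 0.344). On the log2(TPM + 1) scale the difference was -0.92, or 0.528-fold, with the same sign in 8 of 8 strata (permutation p = 1e-05, the smallest possible, adjusted p = 0.00014). At 18 months the uninduced ratios were 0.0990, 0.0902 and 0.137 in Esr1 and 0.170, 0.193 and 0.202 in CYP19A1 glands, and they did not overlap. At 24 months without induction they were 0.250, 0.116 and 0.0607 in Esr1 and 0.276, 0.146 and 0.225 in CYP19A1 glands, and they did. The difference was -0.88 within the 12- and 18-month libraries, -0.97 within the 24- and 30-month libraries and -0.93 without the 9 libraries rich in ribosomal RNA.

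Cldn4 likewise was lower relative to its neighbour Cldn3 in Esr1 glands. The ratio of Cldn4 to Cldn3 had a median of 0.301 in Esr1 (0.211 to 0.837) and 0.520 in CYP19A1 libraries (0.184 to 0.909). The log2 difference was -0.62, or 0.651-fold, with the same sign in 8 of 8 strata (permutation p = 2e-05, adjusted p = 0.00014). It was -0.55 within the 12- and 18-month libraries and -0.69 within the 24- and 30-month libraries (permutation adjusted p = 0.0176 and 0.0195). After 12 months of induction the ratios were 0.358, 0.217 and 0.211 in Esr1 and 0.456, 0.595 and 0.569 in CYP19A1 glands, without overlap. In uninduced glands of 24 months they were 0.837, 0.589 and 0.246 in Esr1 and 0.617, 0.536 and 0.770 in CYP19A1, and they overlapped. The ratios of the models also overlapped at 12 months with and without induction, at 24 months after 6 months of induction, and at 30 months.

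The other ratios were closer between the models. Cdh1 to Epcam had medians of 0.277 in Esr1 and 0.288 in CYP19A1 libraries, a log2 difference of -0.16 (permutation adjusted p = 0.0418). It no longer passed when the libraries rich in ribosomal RNA were left out (-0.12, permutation adjusted p = 0.244). Within the age ranges it was -0.16 and -0.17, as large but not passing with fewer libraries (permutation adjusted p = 0.271 and 0.187). Cldn7 to Epcam differed by 0.17 (permutation adjusted p = 0.107). The partners Krt8 and Krt18 had ratios of 0.564 to 1.13 over all libraries with a median of 0.760, and differed between the models by 0.09 (permutation adjusted p = 0.224). Krt19 to Krt18 differed by -0.16 and Cldn3 to Epcam by 0.10, with adjusted permutation p of 0.224 and 0.232. Between induced and uninduced glands none of the 7 ratios passed, with adjusted permutation p from 0.12 to 0.703, and only Cldn7 to Epcam had an unadjusted p under 0.05 (0.16, permutation p = 0.0428).

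**Figure D3:**
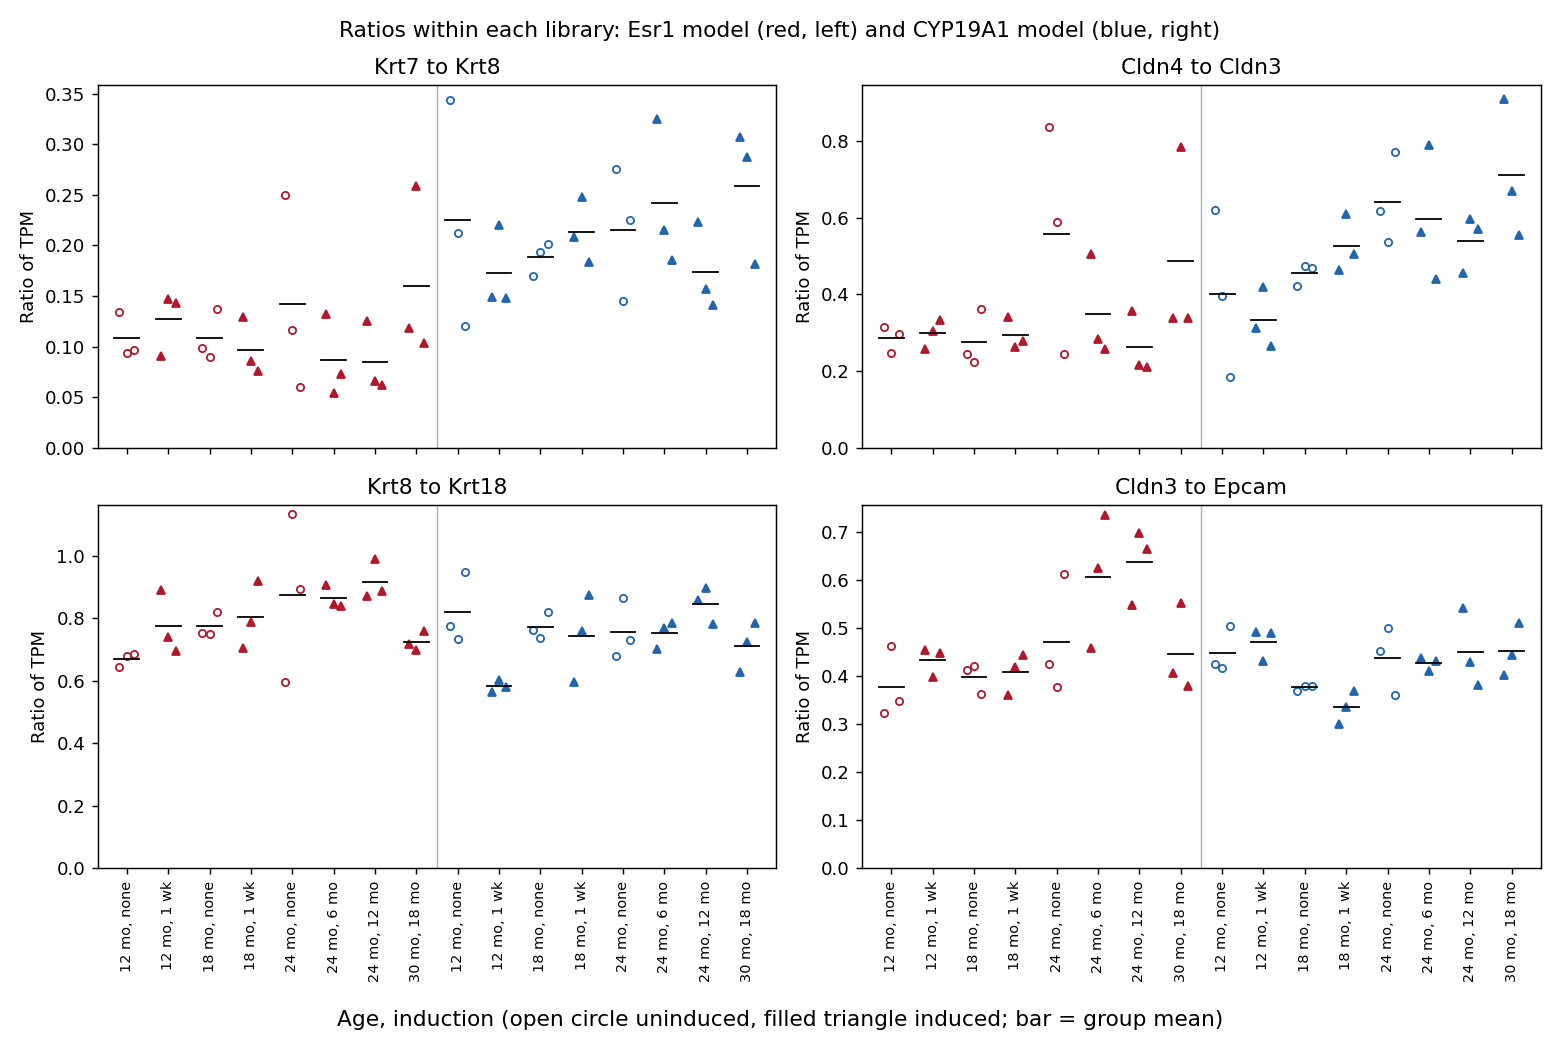
Ratios of TPM within each library for 4 pairs of members, by model, age and induction (open circles uninduced, filled triangles induced, bars group means of 3 libraries). Krt7 to Krt8 and Cldn4 to Cldn3 are lower in the Esr1 model (medians 0.101 against 0.205 and 0.301 against 0.520), while Krt8 to Krt18 stays between 0.564 and 1.13 in every library.

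Over the 48 libraries the members varied together (the matrix of correlations). Pearson's r of log2(TPM + 1) over the 36 pairs ran from 0.502 for Krt7 with Cldn3 to 0.977 for Epcam with Cdh1, with a median of 0.885, and Spearman's rho from 0.549 to 0.974. All 36 had an adjusted permutation p under the 0.05 threshold. The share of other gene pairs that would pass is not given. The median protein-coding gene had r = 0.571 with the mean of the members over these libraries. The count alone therefore does not set the members apart from other genes. Without the 2 libraries farthest from the median, r of the 36 pairs ran from 0.461 to 0.973. It ran from 0.626 to 0.975 among deviations from group means, and from 0.211 to 0.964 after rescaling. Epcam, Cdh1, Cldn3, Cldn7, Krt8 and Krt18 formed the tight group, with r of Epcam from 0.960 (Cldn3) to 0.977 (Cdh1) within it. Krt19 (r = 0.860 with Epcam), Cldn4 (0.826) and Krt7 (0.624) were looser. The closest partner of Krt7 was Cldn4 (0.792, and 0.901 among deviations from group means). Within the 24- and 30-month libraries r of Krt7 with Cldn3 was -0.05 and with Cldn7 -0.01, while within the 12- and 18-month libraries the values were 0.754 and 0.753.

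**Figure D4:**
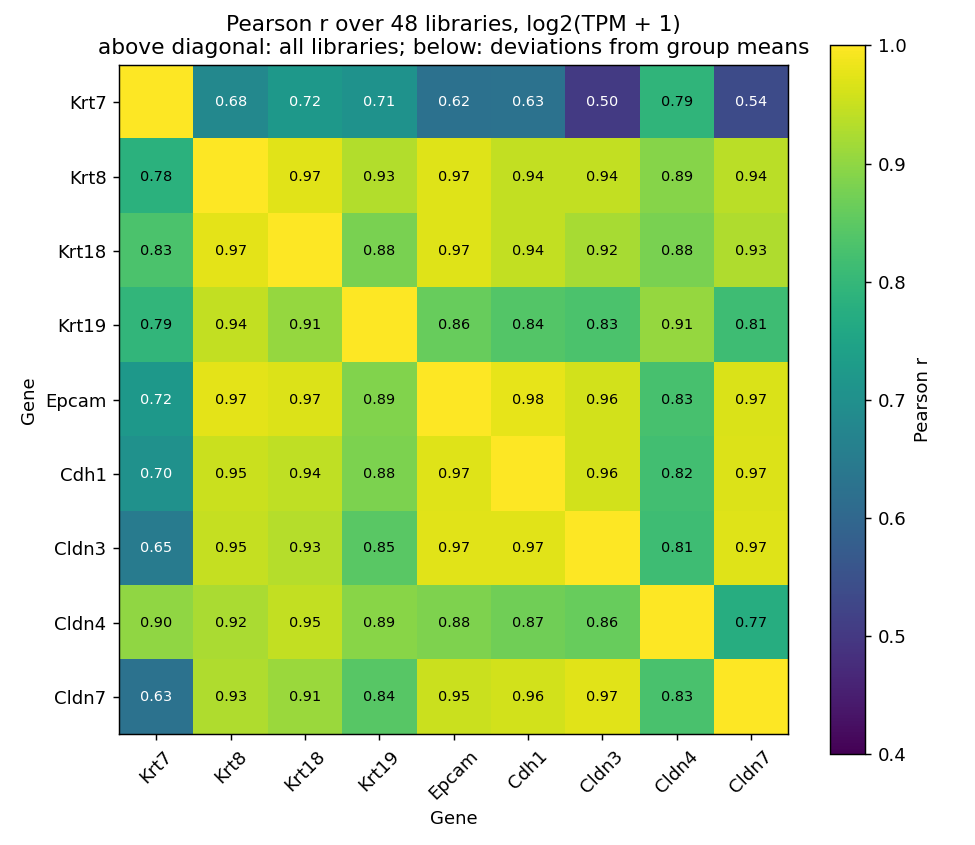
Pearson's r between the 9 genes on the log2(TPM + 1) scale, over all 48 libraries above the diagonal and over deviations from the 16 group means below it. The Krt7 row holds the lowest values, down to 0.50 with Cldn3, and Epcam with Cdh1 the highest, at 0.98.

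Of 14065 protein-coding genes ranked by their correlation with the mean of the 9 members, the 12 most alike were Cdcp1 (r = 0.979), Spint1 (0.978), Nectin4 (0.972), Lsr (0.971), Rab25 (0.971), Spint2 (0.970), Dsg2 (0.969), Zfp7 (0.969), Macc1 (0.968), Fam83h (0.966), Col4a5 (0.963) and Erbb3 (0.963). Spint1 and Spint2 encode inhibitors of membrane serine proteases, Nectin4 an adhesion molecule, Rab25 an epithelial vesicle GTPase and Erbb3 a receptor of the EGF family. The median r of all ranked genes was 0.571, and 296 genes exceeded 0.9, or 76 after rescaling. These r describe 48 libraries that differ in model, age and ribosomal RNA share, and such differences enter r.

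Krt7 to Krt8 and Cldn4 to Cldn3, which differed between the models in all settings, also tracked the beta-casein gene Csn2. This relation was looked for after the data had been seen, among 7 ratios. Csn2 had a median of 2839 TPM in Esr1 (0.36 to 16591) and 60.3 TPM in CYP19A1 libraries (1.71 to 1877). Krt7 to Krt8 had r = -0.778 and rho = -0.783 with log2(TPM + 1) of Csn2 over 48 libraries (adjusted permutation p = 3.5e-05 for each), and r = -0.762 without the 2 libraries farthest from the median of Csn2. It was -0.665 within Esr1, -0.582 within CYP19A1 libraries, -0.730 among deviations from group means, -0.815 at 12 and 18 months and -0.819 at 24 and 30 months. Cldn4 to Cldn3 had r = -0.843 and rho = -0.841 (adjusted permutation p = 3.5e-05 for each), r = -0.830 without those 2 libraries, -0.903 within Esr1, -0.576 within CYP19A1 and -0.706 among deviations, with -0.763 and -0.854 in the age ranges. Of the other 5 ratios, Krt19 to Krt18 (r = -0.526), Cldn7 to Epcam (0.461) and Cdh1 to Epcam (-0.322) also passed. Krt8 to Krt18 (0.189) and Cldn3 to Epcam (0.117) did not pass. These permutations shuffled all 48 libraries, so a difference between the models enters them. Within Esr1 and CYP19A1 libraries r was -0.601 and -0.328 for Krt19 to Krt18, and 0.562 and 0.107 for Cldn7 to Epcam. For Cdh1 to Epcam it was -0.137 and -0.128. Libraries of 1 group differed in the same direction, the uninduced 24-month Esr1 glands. Replicate 1, with 0.36 TPM of Csn2, had 0.250 for Krt7 to Krt8 and 0.837 for Cldn4 to Cldn3. Replicate 3, with 9205 TPM, had 0.0607 and 0.246, and replicate 2 had 0.116 and 0.589. In this group Krt7 ran from 7.08 to 7.95 TPM and Krt8 from 30.5 to 116.6 TPM. Cldn4 ran from 7.43 to 15.2 TPM and Cldn3 from 8.88 to 62.0 TPM, so the second gene of each ratio varied more. Which gene of a ratio carried the relation with Csn2 over all libraries was not tested.

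**Figure D5:**
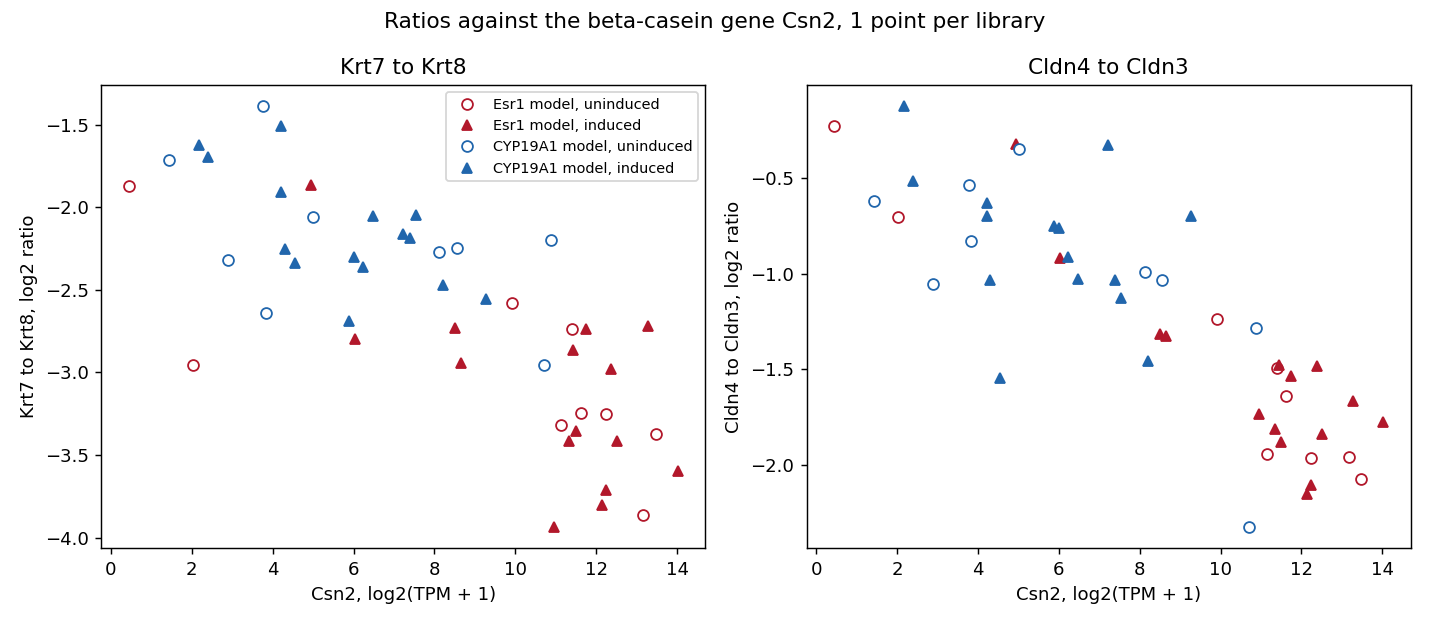
log2 ratio of Krt7 to Krt8 (left) and of Cldn4 to Cldn3 (right), on the log2(TPM + 1) scale, against log2(TPM + 1) of Csn2, with 1 point per library (red Esr1, blue CYP19A1, open uninduced, filled induced). Both ratios are lower where Csn2 is higher, with r = -0.778 and -0.843 over 48 libraries.

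Other tissues that could lend keratins to a thoracic gland were measured beside the members. Over all 48 libraries, 4 mesothelial genes summed to 0.18 to 5.81 TPM, with Msln reaching 5.56 TPM and Upk3b at 0 in 22 libraries. The 8 skin keratinocyte genes summed to 2.72 to 116 TPM. Krt1 reached 32.5 TPM (median 0.04), Flg 28.55 (median 0.1) and Krt10 26.98 (median 1.155). Lor was at 0 in 25 and Krt2 at 0 in 32 libraries. Of 9 salivary gland genes, summing to 31.0 to 153 TPM, Amy1 was at 22.8 to 96.1 TPM. Klk1 reached 121.91 TPM (median 0.125) and Aqp5 27.6 TPM (median 7.865). Smr3a and Dcpp1 were at 0 in 43 and 44 libraries. The 10 basal and myoepithelial genes summed to 54.1 to 506 TPM, and the keratins Krt5 and Krt14 among them were above 0 in all libraries. White adipocyte genes summed to 1342 to 7504 TPM. The part of these cells in the levels of the members was not tested.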

How the data were processed

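Total RNA of thoracic mammary glands went through ribosomal RNA depletion and a stranded TruSeq preparation, and was read as single ends on a NextSeq 550, per the labels' protocols. The values deposited by the authors are TPM per gene. The submitters' processing notes name, with no order, RSEM 1.3.1 and STAR 2.7.9a with the build mm10, beside Trim Galore 0.6.5 and FastQC 0.11.9, and the annotation release is not given in the sources used here. TPM keep no counts, so no counting interval or floor was computed. No library was identical to another.

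The 20209 genes that reached 1 TPM in 3 or more libraries were taken as log2(TPM + 1) and fitted in 1 linear model over 48 libraries and 16 groups with limma 3.58.1 (intensity trend, two-sided) in R 4.3.3, with a threshold of 0.05 on the Benjamini-Hochberg adjusted p over all genes tested. Folds and log2 changes on this scale understate the change of scarce genes. Ratios, correlations and permutation tests were computed in Python 3.11.15, and the fits were tested on simulated data. Alternatives were a pseudocount of 0.1, no filter, rescaling by the median of ratios, the compared groups alone, a replicate block and each replicate left out. Added after the data were seen were leaving out libraries over 10% ribosomal RNA, that library of highest share left out with rescaling, the age ranges alone, the relation with Csn2 and 2 motifs.

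The members and lists were chosen with earlier results of these data known. Genes named are all members, those at either end of each comparison, up to 4 of a list that passed, the 12 most alike and the transgene checks. Gene identifiers of the 9 members matched GENCODE M21 with their version. Promoters of 7 of them were in the RefSeq table. Protein sequences, planned at the outset, were not used here.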

Additional observations from a re-analysis of the deposited data

How the results depend on the processing

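No member passed in any of the 15 comparisons with a pseudocount of 0.1, without a filter, with the compared groups alone, or with the libraries over 10% ribosomal RNA left out. Exceptions were 1 member (Cldn3) in long-induced Esr1 against CYP19A1 glands after rescaling and, on leaving out replicates in turn, 0 to 9 members in the 12-month CYP19A1 induction and 0 to 7 in the difference of 1-week responses. The ribosomal RNA limit left no test of those last 2 comparisons. In the other comparisons that used the uninduced 12-month CYP19A1 group, it left that group 1 library, replicate 2. Changes of sign were seen in members far from passing. Rescaling gave -0.10 for Cldn4 in 12-month-induced CYP19A1 glands, -0.17 for Cldn4 in the CYP19A1 age comparison and 0.17 for Krt7 between 24 and 30 months in CYP19A1. Leaving out libraries over 10% ribosomal RNA gave -0.18 for Krt7 in 18-month CYP19A1 induction and 0.06 for the induction effect on Krt8 to Krt18. It gave -0.97 for Cldn4 in the CYP19A1 age comparison, where the 12-month side then rested on 1 library. Rescaling without the library of highest share gave -0.22 for Cldn4 in the age comparison. Over replicates left out in turn, ranges that crossed 0 were, in Esr1 glands, -0.08 to 0.95 for Krt19 and -0.28 to 0.56 for Krt7 (18 months) and -0.15 to 1.19 for Cldn3 (6 months). In CYP19A1 glands they were -0.18 to 0.68 for Krt7 and -0.39 to 0.33 for Cldn3 (18 months), -0.23 to 0.58 for Krt7 and -0.83 to 0.16 for Cldn4 (6 months), -0.15 to 0.21 for Cldn4 (12 months), -0.45 to 0.62 for Cldn4 (age) and -0.26 to 0.10 for Krt7 (30 months). For Krt8 to Krt18 under induction the range was -0.07 to 0.01.

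Krt7 to Krt8 and Cldn4 to Cldn3 kept their difference between the models in all settings, with replicates left out from -0.99 to -0.86 and from -0.68 to -0.56, and permutation adjusted p from 7e-05 to 0.00994 and from 7e-05 to 0.0195. Cdh1 to Epcam no longer passed with a pseudocount of 0.1 (-0.13), rescaling (-0.15), libraries over 10% left out (-0.12), 12- and 18-month (-0.16) or 24- and 30-month libraries alone (-0.17), nor in 24 of 48 fits without a replicate (-0.19 to -0.15 over all). Cldn7 to Epcam passed with a pseudocount of 0.1 (0.25) and in 3 of 48 such fits (0.13 to 0.20). In 12- and 18-month libraries alone Cldn3 to Epcam was -0.04 between models and Cldn4 to Cldn3 0.06 under induction. In 24- and 30-month libraries alone Krt8 to Krt18 was 0.07 under induction and Krt19 to Krt18 was 0.00 between models. The cause of these changes was not tested.

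Replicate numbers did not pair the libraries: in 12 comparisons of 2 groups same-numbered deviations correlated from -0.344 to 0.348, and in 1 all 3 correlations exceeded 0.1. A replicate block left 0 members called. It moved the 857 genes of the CYP19A1 age comparison to 803 and the 839 of long-induced models to 826. Krt7 to Krt8 stayed at -0.92, a mean difference that this block cannot change with 3 libraries in every group. Counts over all genes depended on the setting. The 857 in the CYP19A1 age comparison became 67 after rescaling and 3 with the compared groups alone. With rescaling and the library of highest ribosomal RNA share left out, the count was 1088. The 596 between uninduced models became 3392 after rescaling and 211 with the compared groups alone. Without libraries over 10% both comparisons kept 1 library of the uninduced 12-month CYP19A1 group, and no count is given. Rescaling, the compared groups alone and leaving out libraries over 10% changed the other counts as follows. The 116 in the Esr1 age comparison became 355, 24 and 266. The 28 between 24 and 30 months in Esr1 became 27, 0 and 85. The 839 between long-induced models became 1964, 1595 and 815. Without the filter 224 genes passed in the 12-month CYP19A1 induction (0 with it) and 109 in that of Esr1 (2 with it).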
